A study of Mus musculus with 7 samples.

Results

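Cell cycle genes were examined in macrophages sorted from GL261 gliomas and from normal mouse brain. The set held 54 genes that act in DNA replication or in mitosis, listed by symbol with earlier results of these data known, so the shares below describe the list and are no independent evidence of its direction. A gene was included when a probe set of the array carried its symbol and no other, and the probe set with the highest mean log2 signal over the arrays stood for the gene. In this way 53 of the 54 were found among 18193 genes: 22 S phase genes, 29 of 30 mitotic genes, and the transcription factors Foxm1 and Mybl2. Ccnb1 had no such probe set and was not analysed here.

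The study compared expression in 2 groups on Affymetrix mouse arrays, read as 1 MAS5 signal intensity for each probe set. The GL261 group (4 arrays) held macrophages from the tumours of C57/Bl6 mice that carried transplanted GFP bone marrow. GL261 is a mouse glioma cell line, and it was injected into the brain, where it grew for 21 days. The normal brain group (3 arrays) held macrophages from brains without a tumour, taken from C57/Bl6 mice aged 8 weeks. Tissue of both groups was digested with papain and macrophages were sorted by GFP and F4/80. For the normal brain mice no GFP marrow is mentioned or denied in the labels, so it is not known whether the sort selected the same cells in both groups. Nor do they say whether the arrays came from separate mice, so the p-values measure only the spread between these arrays, which may be technical. In such bulk samples, fewer cells of a type and less RNA per cell cannot be told apart.

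Proliferating cells switch on these genes in waves. E2F factors drive the genes that license and copy DNA at the entry to S phase, among them the MCM helicase, the GINS complex and the enzymes that make deoxynucleotides. Later, the MuvB complex, joined by B-Myb (Mybl2) and then FoxM1, drives the genes of mitosis through the CHR element of their promoters, often beside CCAAT boxes bound by NF-Y. Resident microglia of the adult brain divide rarely, whereas macrophages in gliomas can be recruited from blood or divide in place.

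The median signal was 50.9 to 65.0 on the GL261 arrays, highest on replicate 2, and 49.5 to 73.0 on the normal brain arrays. The trimmed mean was about 500 on each. The deposited values had been scaled to that level, so the trimmed mean cannot compare the arrays. Values below are log2(signal + 6) unless stated, and background was 4.19 to 4.70 on this scale, the 95th percentile of 27 control probe sets without a target. All 10 macrophage markers tested, among them Adgre1, which encodes F4/80, were above background on every array. Their summed signal was 47322 to 62150 on GL261 arrays and 55787 to 65782 on normal brain arrays. Of the 10, Mertk was called higher (log2 fold change 1.06), and the microglial genes P2ry12 (-1.28), Cx3cr1 (-0.71) and Tmem119 (-0.61) were called lower. Among all genes tested 5.92% were called higher and 4.2% lower. Pairs of GL261 arrays correlated at 0.942 to 0.954, pairs of normal brain arrays at 0.896 to 0.927 and mixed pairs at 0.875 to 0.922. The Gapdh ratio of 3' over 5' probe set, a measure of RNA integrity and labelling, was 1.64 to 1.89 in GL261 and 2.39 to 2.43 in normal brain (two-sided exact permutation p = 0.0286, the smallest that 35 splits allow). The same ratio of actin was 1.36 to 1.52 in GL261 and 1.43 to 1.64 in normal brain, which overlap (two-sided exact permutation p = 0.143). Their part in the results below was not tested.

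Genes of both classes were higher on the GL261 arrays, and none was called lower. Of the 53 measured genes 19 (35.8%) were called higher by limma at an adjusted p under 0.05, where 5.92% of all 12125 genes tested were called higher, and 0 were called lower, where 4.2% of all genes were. Calls in both directions made up 10.1% of all genes. At an unadjusted p under 0.05, 37 were higher and 0 lower, against 15.2% and 10.9% of all genes. For 29 of the 53 (54.7%) all GL261 arrays lay above all normal brain arrays, against 13.1% of all genes. For 0 of them all GL261 arrays lay below, against 10.4% of all genes. The median log2 fold change was 1.26, against 0.04 over all genes, and 51 of the 53 fold changes were positive. The exceptions were Tyms, which encodes thymidylate synthase, at -0.38 ± 0.60 (SE; limma adjusted p = 0.734), and Cdca8, a subunit of the chromosomal passenger complex, at -0.02 ± 0.26 (SE; limma adjusted p = 0.975). The Tyms probe set was dim, with a mean of 5.06 (filter 4.93), and under background on GL261 replicate 3. Its other probe sets did not pass the filter. When every probe set was fitted by itself, other Cdca8 probe sets gave 1.52 (limma adjusted p = 0.291) and 0.04. All 53 passed the filter on low values. The number of called genes fell to 11 without GL261 replicate 2 and to 10 without GL261 replicate 3, and it was 12 with a variance prior that did not follow the signal and 11 with the mean of each gene's probe sets. That mean takes in every probe set of a gene, also those under the filter. With it only 6 of the 19 were still called (Birc5, Cdk1, Gins2, Prc1, Tpx2 and Ube2c), 12 were not, and Mybl2 was under the filter. Birc5, Cdk1 and Ube2c have 1 probe set each, so their fold changes could not change there. The other genes called with that mean were Bub1b, Ccne1, Cdc6, Rrm2 and Uhrf1. With every value under an array's background set to that background, all 19 were called.

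**Figure D1:**
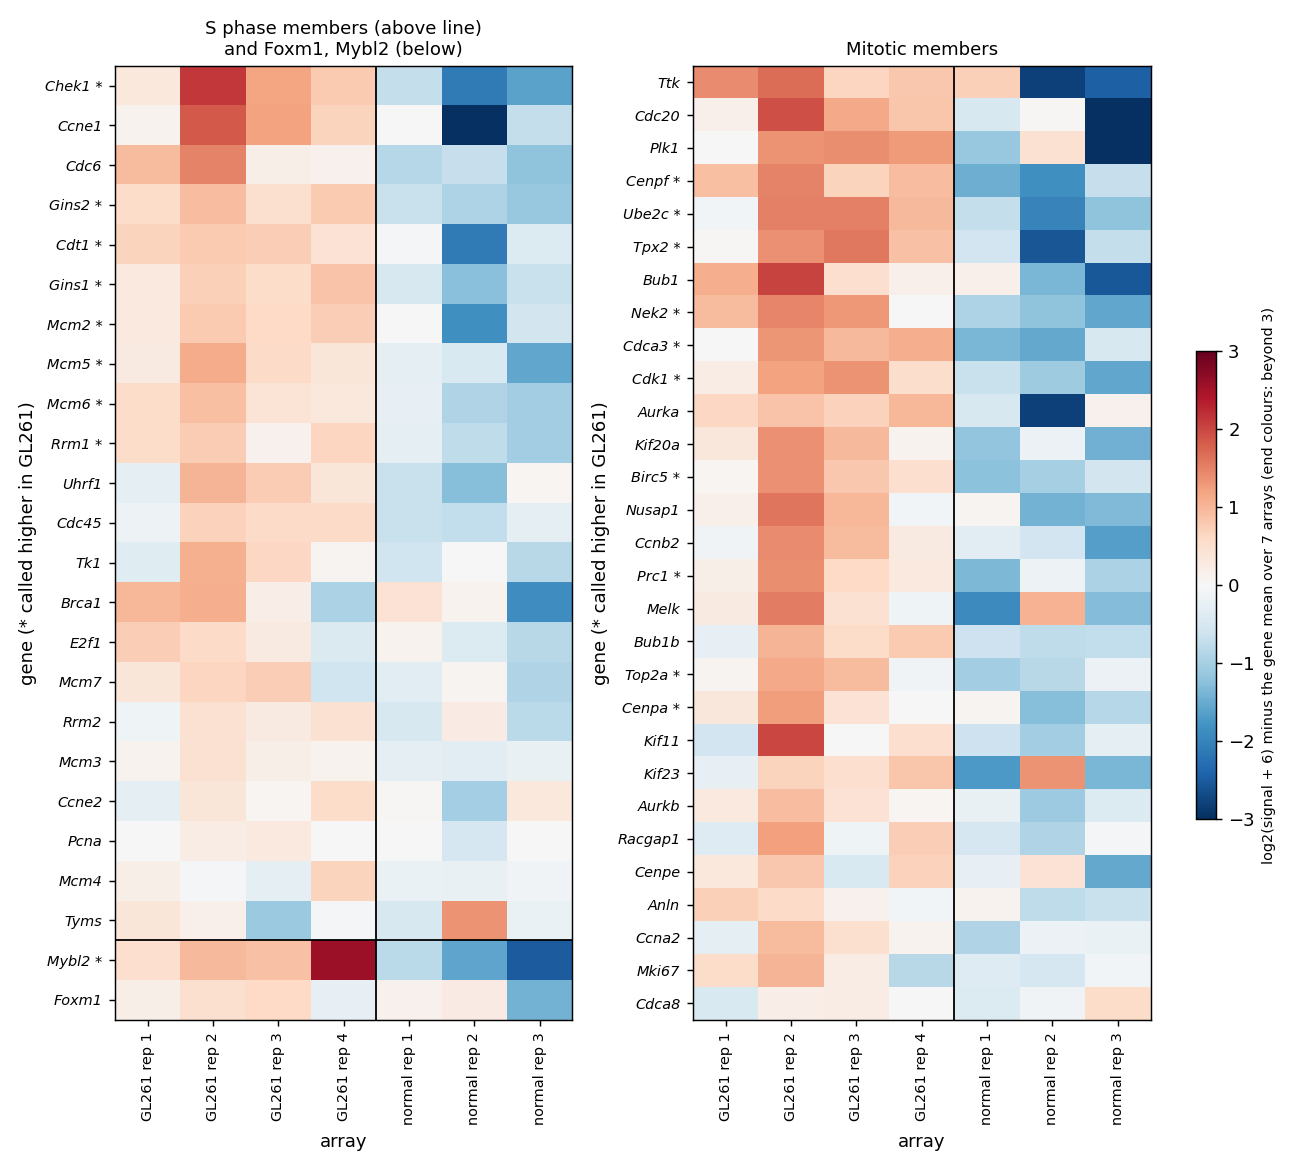
Heat map of the 53 measured cell cycle genes (rows) on the 4 GL261 and 3 normal brain arrays (columns). Colour shows log2(signal + 6) minus the gene's mean over the 7 arrays, with the end colours also used beyond 3, and asterisks mark the 19 genes called higher, so the GL261 columns are mostly red and GL261 replicate 2 is the strongest of them.

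In the S phase class, 8 genes were called higher. Of 22 genes they made up 36.4%, against 5.92% of all genes. In 21 the fold change was positive, against 6408 of 12125 over all genes. For 13 (59.1%) all GL261 arrays lay above all normal brain arrays, against 13.1% of all genes. The median log2 fold change was 1.04, against 0.04 over all genes. The called genes were the checkpoint kinase Chek1, the helicase subunits Mcm2, Mcm5 and Mcm6, the helicase partners Gins1 and Gins2, the licensing factor Cdt1 and the reductase subunit Rrm1. Leaving out 1 GL261 array gave 5 calls (replicate 2), 4 calls (replicate 3) or 5 calls (replicate 4).

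Promoters of 4 called S phase genes are shown because these genes changed in the same direction and hold motifs that were searched in both classes. Each runs from 250 bases before to 50 after the start annotated by RefSeq on GRCm38.p6. Capitals mark matches, on either strand, to the E2F words TTCCCGC and TTGGCGC, the NF-Y box CCAAT and the CHR word TTTGAA. The promoters of Chek1 (chr9:36726609-36726908, minus strand), Cdt1 (chr8:122567765-122568064, plus strand), Mcm2 (chr6:88898731-88899030, minus strand) and Mcm5 (chr8:75109259-75109558, plus strand) read 5' to 3' as follows.
Chek1: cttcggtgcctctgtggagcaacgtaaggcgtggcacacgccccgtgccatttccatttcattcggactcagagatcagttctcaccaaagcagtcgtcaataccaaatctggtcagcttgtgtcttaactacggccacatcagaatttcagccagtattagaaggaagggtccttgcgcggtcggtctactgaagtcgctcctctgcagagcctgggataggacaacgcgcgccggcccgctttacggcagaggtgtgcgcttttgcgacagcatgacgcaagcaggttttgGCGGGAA
Cdt1: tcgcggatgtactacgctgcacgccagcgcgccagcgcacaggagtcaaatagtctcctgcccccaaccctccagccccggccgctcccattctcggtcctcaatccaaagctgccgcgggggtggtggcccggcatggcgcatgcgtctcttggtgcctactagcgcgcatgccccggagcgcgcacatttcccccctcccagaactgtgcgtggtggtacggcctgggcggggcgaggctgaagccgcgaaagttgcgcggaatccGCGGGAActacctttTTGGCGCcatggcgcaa
Mcm2: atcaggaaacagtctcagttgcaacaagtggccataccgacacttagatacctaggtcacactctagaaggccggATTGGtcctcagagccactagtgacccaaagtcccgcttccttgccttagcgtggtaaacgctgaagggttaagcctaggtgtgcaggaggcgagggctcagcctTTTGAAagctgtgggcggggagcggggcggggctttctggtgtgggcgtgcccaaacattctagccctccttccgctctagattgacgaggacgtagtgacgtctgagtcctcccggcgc
Mcm5: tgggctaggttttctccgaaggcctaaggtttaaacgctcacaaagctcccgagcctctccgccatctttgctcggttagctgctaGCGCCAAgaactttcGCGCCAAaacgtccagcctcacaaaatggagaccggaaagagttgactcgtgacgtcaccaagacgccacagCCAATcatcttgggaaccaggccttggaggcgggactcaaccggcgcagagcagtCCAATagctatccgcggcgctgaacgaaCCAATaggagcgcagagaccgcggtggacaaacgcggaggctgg
Chek1 and Cdt1 have E2F words alone, at 44 and at 19 and 34, counted from 1 at the start. Mcm5 has E2F words and NF-Y boxes, and Mcm2 an NF-Y box at -175 and a CHR word at -70.

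The MCM genes encode the helicase that unwinds DNA, and 3 of the 6 were called. Mcm6 measured 10.73, 11.06, 10.57 and 10.49 on the GL261 arrays, against 9.91, 9.27 and 9.13 on the normal brain arrays. The groups did not overlap, and its log2 fold change was 1.27 ± 0.23 (SE; limma adjusted p = 0.00727). Mcm5 measured 10.06, 10.89, 10.36 and 10.14 on the GL261 arrays, against 9.50, 9.34 and 8.23 on the normal brain arrays. GL261 replicate 2 was highest and normal brain replicate 3 lowest, for a log2 fold change of 1.34 ± 0.32 (SE; limma adjusted p = 0.0230), a call lost in 2 of the 7 fits that left out 1 array (adjusted p = 0.0664 at most, without GL261 replicate 3). Mcm2, whose promoter is given above, measured 9.33, 9.83, 9.64 and 9.79 on the GL261 arrays, against 9.05, 7.20 and 8.49 on the normal brain arrays. The GL261 values lay close together and normal brain replicate 2 was far below its group. Its log2 fold change was 1.40 ± 0.40 (SE; limma adjusted p = 0.0450), and the call was lost in 6 of the 7 fits that left out 1 array (adjusted p = 0.110 at most, without GL261 replicate 3). With the mean of probe sets none of the 3 was called, at 0.87 (limma adjusted p = 0.118) for Mcm6, 1.15 (limma adjusted p = 0.0833) for Mcm5 and 1.27 (limma adjusted p = 0.0639) for Mcm2. Mcm3, Mcm4 and Mcm7 were not called, with log2 fold changes of 0.49, 0.31 and 0.67. Another Mcm3 probe set, fitted by itself, was called at 0.66 (limma adjusted p = 0.0400).

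Of 6 licensing and fork genes 3 were called. Cdt1, which loads the helicase onto origins, measured 11.20, 11.31, 11.25 and 10.97 on the GL261 arrays, against 10.46, 8.40 and 10.11 on the normal brain arrays. The GL261 values lay close together, all above normal brain, where replicate 2 was far lowest, and the log2 fold change was 1.53 ± 0.38 (SE; limma adjusted p = 0.0278), a call lost in 4 of the 7 fits that left out 1 array (adjusted p = 0.0771 at most, without GL261 replicate 3). Cdc6, its loading partner, had a log2 fold change of 1.60 ± 0.51 (SE; limma adjusted p = 0.0676) and was not called, although its groups did not overlap. Cdc6 has 1 probe set, and in the fit on means of probe sets it was called at the same fold change (limma adjusted p = 0.0424). Gins1, a subunit of the GINS complex that activates the helicase, measured 9.63, 10.07, 9.89 and 10.19 on the GL261 arrays, against 8.86, 8.08 and 8.67 on the normal brain arrays. Gins2, of the same complex, measured 8.79, 9.17, 8.73 and 9.02 on the GL261 arrays, against 7.57, 7.32 and 7.11 on the normal brain arrays. In both genes every GL261 array was above every normal brain array, with log2 fold changes of 1.41 ± 0.27 (SE; limma adjusted p = 0.00931) for Gins1 and 1.59 ± 0.35 (SE; limma adjusted p = 0.0160) for Gins2. Both calls held in all 7 fits that left out 1 array. With the mean of probe sets Gins1 lost its call at 0.61 (limma adjusted p = 0.202), and its other probe set read -0.19. By that mean Cdt1 lost its call at 0.95 (limma adjusted p = 0.135). The other Cdt1 probe sets had means of 8.61 (log2 fold change 1.39) and 2.85 (under the filter). Cdc45, the third part of the active helicase, was not called at 0.99 ± 0.45 (SE; limma adjusted p = 0.186). Pcna, the sliding clamp of the polymerases, measured 12.22, 12.44, 12.50 and 12.22 on the GL261 arrays, against 12.19, 11.70 and 12.19 on the normal brain arrays. Its groups did not overlap, yet the log2 fold change of 0.32 ± 0.16 (SE; limma adjusted p = 0.243) was small and not called.

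Of 4 nucleotide supply genes 1 was called. Rrm1, the large subunit of ribonucleotide reductase, measured 9.89, 10.12, 9.49 and 9.99 on the GL261 arrays, against 9.06, 8.60 and 8.32 on the normal brain arrays. All GL261 values were higher, with a log2 fold change of 1.21 ± 0.27 (SE; limma adjusted p = 0.0176), a call lost in 2 of the 7 fits that left out 1 array (adjusted p = 0.0548 at most, without GL261 replicate 4). With the mean of probe sets the Rrm1 call was also lost, at 0.32 (limma adjusted p = 0.684). Its partner Rrm2 was not called at 0.61, nor was the thymidine kinase Tk1 at 0.83. A second Rrm2 probe set of lower signal, tested when every probe set was fitted by itself, was called at 2.25 (limma adjusted p = 0.0464). With the mean of probe sets Rrm2 was called, at 1.33 (limma adjusted p = 0.0456).

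Chek1, the kinase that slows replication after damage, had the largest S phase fold change. It measured 6.98, 8.77, 7.85 and 7.44 on the GL261 arrays, against 5.95, 4.54 and 5.06 on the normal brain arrays. Normal brain replicate 2 was at background, and the groups did not overlap. The log2 fold change was 2.58 ± 0.57 (SE; limma adjusted p = 0.0170), and the call was lost in 1 of the 7 fits that left out 1 array (adjusted p = 0.0564 at most, without GL261 replicate 3). With the mean of probe sets it was lost at 1.27 (limma adjusted p = 0.117). The G1/S regulators were not called. E2f1, a factor that drives S phase genes, measured 9.42, 9.24, 8.94 and 8.24 on the GL261 arrays, against 8.78, 8.27 and 7.84 on the normal brain arrays. These ranges overlap, and its log2 fold change was 0.67 ± 0.38 (SE; limma adjusted p = 0.291). The cyclin E genes Ccne1 and Ccne2 had log2 fold changes of 2.22 and 0.39, with adjusted p = 0.0688 for Ccne1 and 0.655 for Ccne2 by limma. With the mean of probe sets Ccne1 was called, at 2.12 (limma adjusted p = 0.0464). The methylation reader Uhrf1 (1.09) and the repair gene Brca1 (0.77) were likewise not called. Uhrf1 was called with the mean of probe sets, at 1.86 (limma adjusted p = 0.0212). That value takes in a dim probe set with a mean of 5.15, whose normal brain values lay near or under background.

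In the mitotic class, 10 genes were called higher. Of 29 genes they made up 34.5%, against 5.92% of all genes. In 28 the fold change was positive, against 6408 of 12125 over all genes. For 15 (51.7%) all GL261 arrays lay above all normal brain arrays, against 13.1% of all genes. The median log2 fold change was 1.48, against 0.04 over all genes. At least a 1 log2 unit difference was seen in 23 of 29, against 11 of 22 S phase genes. The upper quartile of the log2 fold changes of all genes was 0.46. The called genes were the cyclin-dependent kinase Cdk1, the kinase Nek2, the ubiquitin pathway genes Ube2c and Cdca3, the centromere genes Cenpa, Cenpf and Birc5, the spindle gene Tpx2, the cytokinesis gene Prc1 and the topoisomerase Top2a. Leaving out GL261 replicate 2 gave 5 calls, leaving out GL261 replicate 3 gave 5, and using no filter on low values gave 6.

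Promoters of 4 called mitotic genes are shown for comparison with the S phase promoters above, with the same marks. They are those of Cenpf (chr1:189688037-189688336, minus strand), Ube2c (chr2:164769679-164769978, plus strand), Nek2 (chr1:191821223-191821522, plus strand) and Cdca3 (chr6:124829926-124830225, plus strand).
Cenpf: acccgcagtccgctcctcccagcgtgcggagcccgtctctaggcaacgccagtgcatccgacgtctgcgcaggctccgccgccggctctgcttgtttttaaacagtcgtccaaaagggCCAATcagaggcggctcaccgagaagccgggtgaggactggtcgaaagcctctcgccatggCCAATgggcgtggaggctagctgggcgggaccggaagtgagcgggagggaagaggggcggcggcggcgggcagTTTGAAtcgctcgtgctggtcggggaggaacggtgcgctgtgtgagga
Ube2c: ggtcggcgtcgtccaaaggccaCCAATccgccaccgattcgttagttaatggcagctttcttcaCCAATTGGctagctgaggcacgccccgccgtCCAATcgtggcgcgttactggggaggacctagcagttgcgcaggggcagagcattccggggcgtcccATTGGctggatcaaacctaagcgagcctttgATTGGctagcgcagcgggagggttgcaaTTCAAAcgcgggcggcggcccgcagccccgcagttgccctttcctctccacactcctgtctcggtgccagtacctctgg
Nek2: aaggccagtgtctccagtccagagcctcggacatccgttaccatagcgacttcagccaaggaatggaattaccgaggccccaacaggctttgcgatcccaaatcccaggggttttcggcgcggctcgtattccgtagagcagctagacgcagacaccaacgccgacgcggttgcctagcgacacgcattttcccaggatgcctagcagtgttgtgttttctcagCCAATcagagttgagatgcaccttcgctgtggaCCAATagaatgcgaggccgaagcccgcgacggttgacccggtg
Cdca3: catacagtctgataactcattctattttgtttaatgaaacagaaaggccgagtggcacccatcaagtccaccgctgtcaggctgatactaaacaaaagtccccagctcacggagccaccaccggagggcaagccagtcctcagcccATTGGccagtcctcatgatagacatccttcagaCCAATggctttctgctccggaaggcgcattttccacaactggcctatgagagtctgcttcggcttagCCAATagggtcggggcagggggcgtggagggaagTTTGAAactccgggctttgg
Cenpf, Ube2c and Cdca3 carry a CHR word at 3, -29 and 31 together with NF-Y boxes, and Nek2 carries NF-Y boxes at -26 and 8 and no CHR word in this window. E2F words were found in none of the 4.

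Cdk1, the kinase that drives entry into mitosis, measured 9.71, 10.70, 10.86 and 10.02 on the GL261 arrays, against 8.83, 8.44 and 7.95 on the normal brain arrays. The lowest GL261 array was above the highest normal brain array. Its log2 fold change of 1.92 ± 0.33 (SE; limma adjusted p = 0.00499) was called in all 7 fits that left out 1 array. Ccnb2, its cyclin B partner, separated the groups but was not called at 1.48 ± 0.50 (SE; limma adjusted p = 0.0821). Ccna2, cyclin A, was not called either at 0.76 ± 0.33 (SE; limma adjusted p = 0.173).

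Of 6 mitotic kinases 1 was called. Nek2, a kinase of centrosome separation, measured 6.75, 7.27, 7.10 and 5.78 on the GL261 arrays, against 4.86, 4.59 and 4.23 on the normal brain arrays. Normal brain replicate 3 was the lowest, at background, and the groups did not overlap. The log2 fold change was 2.16 ± 0.53 (SE; limma adjusted p = 0.0260), and the call was lost in 5 of the 7 fits that left out 1 array (adjusted p = 0.0805 at most, without GL261 replicate 3). It was also lost with the mean of probe sets, at 1.14 (limma adjusted p = 0.0868). The checkpoint kinase Ttk had a log2 fold change of 2.65 ± 0.78 (SE; limma adjusted p = 0.0521), the polo kinase Plk1 2.34 ± 0.78 (SE; limma adjusted p = 0.0796) and the Aurora kinase Aurka 1.85 ± 0.63 (SE; limma adjusted p = 0.0854). None of these passed the threshold. Ttk was at background on 2 of 3 normal brain arrays, and with background as the floor its log2 fold change was 1.47 (limma adjusted p = 0.0939). Aurkb and Melk had smaller values, 1.01 and 1.26, and were not called.

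Of 5 ubiquitin and checkpoint genes 2 were called, and all had positive fold changes. Ube2c, the E2 enzyme of the anaphase-promoting complex, measured 9.01, 10.61, 10.59 and 10.05 on the GL261 arrays, against 8.37, 7.08 and 7.88 on the normal brain arrays. Every GL261 array exceeded every normal brain array, with a log2 fold change of 2.28 ± 0.43 (SE; limma adjusted p = 0.00814). Cdca3, a trigger of entry into mitosis, measured 9.35, 10.68, 10.32 and 10.44 on the GL261 arrays, against 7.99, 7.82 and 8.88 on the normal brain arrays. Its arrays did not overlap either, and the log2 fold change was 1.97 ± 0.36 (SE; limma adjusted p = 0.00744). Both calls held in all 7 fits that left out 1 array, and Cdca3 lost its call with the mean of probe sets at 0.88 (limma adjusted p = 0.216). The other Cdca3 probe sets had means of 3.35 and 3.01, under the filter, and were not tested by themselves. Cdc20, Bub1 and Bub1b, which act in the spindle checkpoint, had log2 fold changes of 2.36, 2.20 and 1.23 and were not called, with adjusted p-values by limma between 0.0599 and 0.0752. Bub1b was called with the mean of probe sets, at 1.48 (limma adjusted p = 0.0244). Another Bub1b probe set, fitted by itself, was called at 1.77 (limma adjusted p = 0.0338).

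Of 5 centromere genes 3 were called. Cenpf, a kinetochore protein, measured 7.27, 7.86, 7.04 and 7.29 on the GL261 arrays, against 4.91, 4.53 and 5.67 on the normal brain arrays. Normal brain replicate 2 was at background and the groups did not overlap, and the log2 fold change was 2.33 ± 0.50 (SE; limma adjusted p = 0.0148). Birc5, or survivin, a passenger protein, measured 10.52, 11.82, 11.27 and 10.97 on the GL261 arrays, against 9.23, 9.47 and 9.90 on the normal brain arrays. The groups were apart, with a log2 fold change of 1.62 ± 0.28 (SE; limma adjusted p = 0.00566). Both calls held in all 7 fits that left out 1 array, and Cenpf lost its call with the mean of probe sets at 1.21 (limma adjusted p = 0.119). The other Cenpf probe sets had means of 4.74 and 4.25, under the filter, and were not tested by themselves. Cenpa, the centromeric histone, measured 10.42, 11.34, 10.52 and 10.06 on the GL261 arrays, against 10.16, 8.80 and 9.23 on the normal brain arrays. Normal brain replicate 1 lay within the GL261 values, and the log2 fold change was 1.19 ± 0.35 (SE; limma adjusted p = 0.0499), a call lost in 6 of the 7 fits that left out 1 array (adjusted p = 0.143 at most, without normal brain replicate 2). The other Cenpa probe sets did not follow it, at -1.33 (limma adjusted p = 0.0804) and 0.09, and the mean of its probe sets gave -0.015. The motor Cenpe was not called (0.79).

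Of 8 spindle and cytokinesis genes 2 were called. Tpx2, which activates Aurora A on the spindle, measured 7.97, 9.31, 9.50 and 8.80 on the GL261 arrays, against 7.35, 5.38 and 7.21 on the normal brain arrays. GL261 replicate 3 was highest and normal brain replicate 2 lowest, and no normal brain array reached the GL261 values. The log2 fold change was 2.25 ± 0.56 (SE; limma adjusted p = 0.0275), and the call was lost in 4 of the 7 fits that left out 1 array (adjusted p = 0.0961 at most, without GL261 replicate 3). Prc1, which bundles the microtubules of the dividing cell's midzone, measured 9.20, 10.42, 9.64 and 9.32 on the GL261 arrays, against 7.69, 8.88 and 8.08 on the normal brain arrays. The log2 fold change was 1.43 ± 0.38 (SE; limma adjusted p = 0.0356) with no overlap, and the call was lost in 5 of the 7 fits that left out 1 array (adjusted p = 0.0938 at most, without GL261 replicate 3). The motors Kif11, Kif20a and Kif23 and the genes Nusap1, Racgap1 and Anln were not called, with log2 fold changes between 0.78 and 1.63.

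Top2a and Mki67 are the markers most used for cycling cells. Top2a, which untangles sister chromosomes, measured 9.96, 11.01, 10.82 and 9.76 on the GL261 arrays, against 8.84, 9.04 and 9.69 on the normal brain arrays. All GL261 values were above, with a log2 fold change of 1.20 ± 0.33 (SE; limma adjusted p = 0.0416), a call lost in 5 of the 7 fits that left out 1 array (adjusted p = 0.127 at most, without GL261 replicate 3). With the mean of probe sets Top2a was not called, at 0.26 (limma adjusted p = 0.753). Its other probe sets had means of 6.11 (log2 fold change 0.52) and 3.89 (under the filter). Mki67, which encodes the Ki-67 protein, measured 10.75, 11.22, 10.42 and 9.37 on the GL261 arrays, against 9.81, 9.69 and 10.12 on the normal brain arrays. The groups overlapped, and the log2 fold change was 0.56 ± 0.35 (SE; limma adjusted p = 0.337), which was not called. For Mki67 the range over the fits that left out 1 array was 0.31 to 0.92.

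The transcription factors were kept apart from the classes. Mybl2, the B-Myb protein, measured 5.84, 6.31, 6.22 and 7.91 on the GL261 arrays, against 4.53, 3.76 and 2.84 on the normal brain arrays. On the normal brain side 2 of 3 arrays were at background, and the groups did not overlap. Its log2 fold change, 2.86 ± 0.63 (SE; limma adjusted p = 0.0169), rests on values under background, and with background as the floor it was 1.98 (limma adjusted p = 0.0315). The call was lost in 1 of the 7 fits that left out 1 array (adjusted p = 0.0517 at most, without normal brain replicate 3). Foxm1, by the probe set used here, measured 6.84, 7.15, 7.26 and 6.42 on the GL261 arrays, against 6.79, 6.90 and 5.23 on the normal brain arrays. Those values overlapped, and the log2 fold change was 0.61 ± 0.55 (SE; limma adjusted p = 0.522). A dimmer Foxm1 probe set gave 2.76 (limma adjusted p = 0.00858), so the probe sets of this gene disagree. The dimmer one had a mean of 5.03, where background was 4.70 at most. Its fold change therefore rests on normal brain values near or under background, and its size is uncertain.

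**Figure D2:**
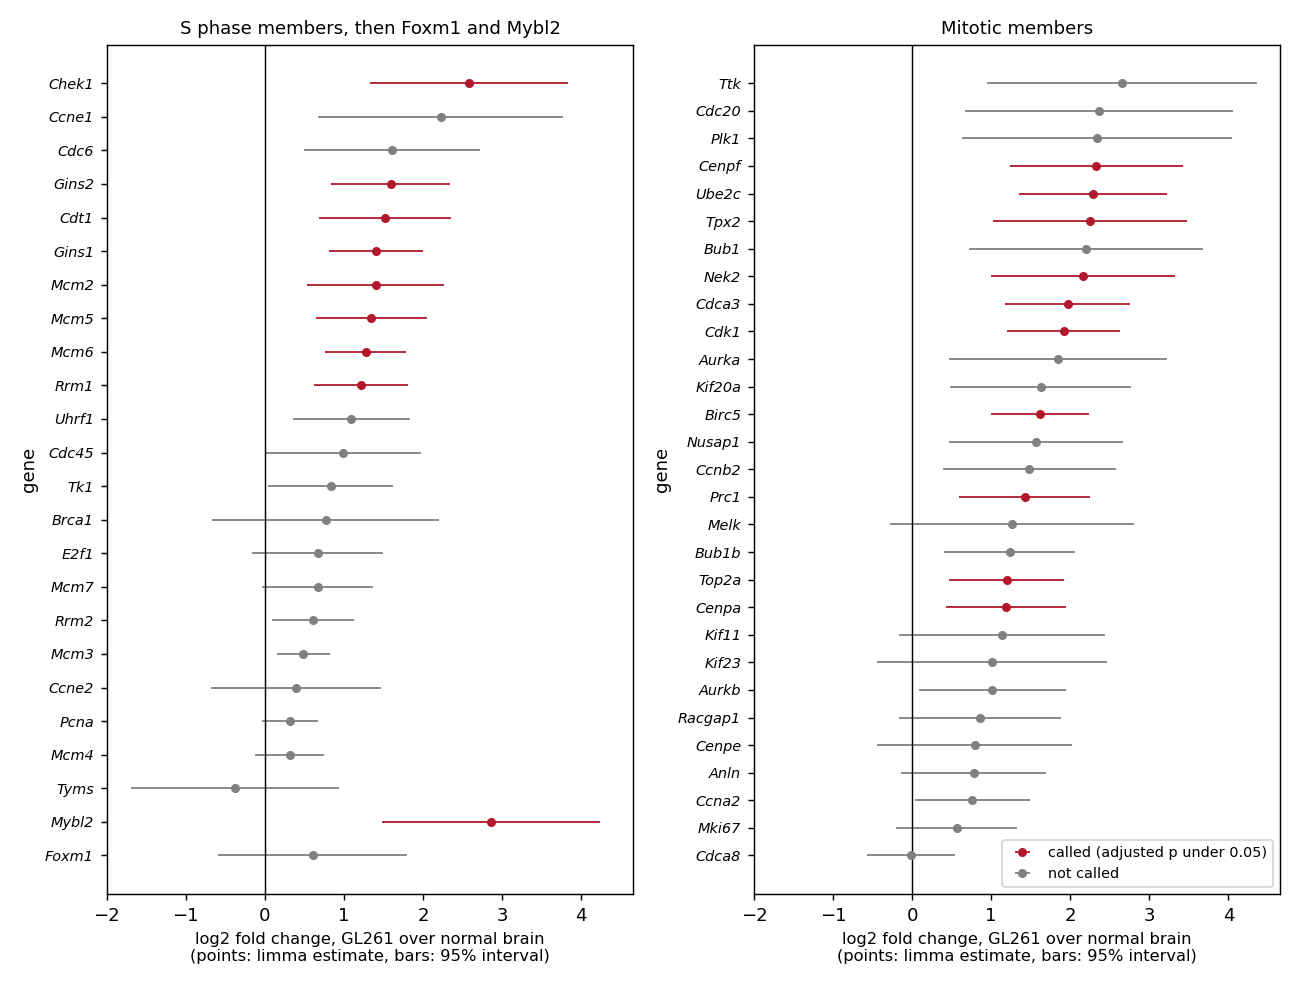
Log2 fold change of each of the 53 genes, GL261 over normal brain (x axis), with the 95% interval of limma as a bar; red marks the 19 called genes. Of the 53 points 51 lie right of 0, and those of Mybl2 at 2.86 and Ttk at 2.65 rest on normal brain values of which 2 of 3 were at background.

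Other probe sets of the same genes were read as well. The 53 genes had 128 probe sets with 1 symbol, and 75 of these were not used above. Of the 47 that passed the filter when every probe set was tested by itself, 8 were called higher and 0 lower, and 41 had a positive and 6 a negative fold change. The negative ones, none called, belonged to Cenpa (-1.33), Cdc45 (-0.59), Gins1 (-0.19), Anln (-0.07), E2f1 (-0.05) and Mcm3 (-0.0093). Among the called ones were a second Mcm6 probe set at 1.29 and a second Gins2 probe set at 1.48, near the values of the probe sets used. A second Tpx2 probe set gave 3.81 and a second Uhrf1 probe set 2.64, above the values of those used. The second Uhrf1 probe set was dim, with a mean of 5.15 where background was 4.70 at most. Its fold change therefore rests on normal brain values near or under background, and its size is uncertain.

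The classes were compared over arrays by the mean deviation of their genes from each gene's own mean. S phase genes deviated by 0.28, 0.82, 0.39 and 0.30 on GL261 arrays 1 to 4, against -0.31, -0.77 and -0.71 on normal brain arrays 1 to 3. Mitotic genes deviated by 0.22, 1.27, 0.69 and 0.42 on the GL261 arrays, against -0.67, -0.85 and -1.07 on the normal brain arrays. In both classes the groups were apart, and GL261 replicate 2 stood highest. It held the highest value of all 7 arrays in 15 of 22 S phase and 22 of 29 mitotic genes. GL261 replicate 1 held the lowest value of the GL261 arrays in 11 of 22 S phase and 16 of 29 mitotic genes. The S phase mean minus the mitotic mean was 0.06, -0.44, -0.30 and -0.12 on the GL261 arrays, against 0.36, 0.08 and 0.36 on the normal brain arrays.

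The S phase median fold change was lower than the mitotic one by 0.44 on the log2 scale, as a description with no test. This gap was 0.22 with a pseudocount of 58 and 0.22 with a filter at the 60th percentile, and it was 0.71 without normal brain replicate 2. The classes also differed in brightness, with a median level of 9.26 for S phase and 7.89 for mitotic genes, and the part of brightness in the gap was not tested. With Ccna2 moved to the S phase class and Mki67 left out, 8 of 23 S phase genes were called, with a median of 0.99. By that assignment 10 of 27 mitotic genes were called, with a median of 1.56.

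Markers of other cells also differed on these arrays. Of 9 glioma and oligodendrocyte precursor markers tested 4 (Sox10, Sox2, Olig1 and Olig2) were called higher, against 5.92% of all genes. The summed signal of the list was 1139 to 2206 in GL261 and 450 to 890 in normal brain. Olig2 and Cspg4 were at background on all normal brain arrays and above it on all GL261 arrays. By the mean of the list, glioma markers were lowest of the GL261 arrays on replicate 1 (mean deviation 0.07, the others 1.01 to 1.18). That array was most often the lowest GL261 array for cell cycle genes. Of the 4 called glioma markers, Sox2 was lowest of the GL261 arrays on replicate 1 (7.79). Sox10 (8.39), Olig1 (7.58) and Olig2 (6.03) were lowest on replicate 3. Sox10 (9.35) and Olig2 (7.10) were highest on replicate 2, Sox2 (8.53) and Olig1 (8.28) on replicate 4. Of 7 T and NK cell markers Cd8a alone (14.3%) was called higher. The summed signal of that list was 2782 to 5281 in GL261 and 1867 to 3575 in normal brain. All 6 B cell, 6 of 7 neutrophil, 3 of 7 endothelial and both erythroid markers tested were called lower, against 4.2% of all genes. GL261 replicate 2, the highest for cell cycle genes, stood above the other GL261 arrays in neutrophil (0.13, the others -1.79 to -1.26), endothelial (0.58, the others -1.49 to -1.21) and erythroid markers (1.63, the others -3.83 to -3.03). It also stood above them in B cell markers (-0.41, the others -1.87 to -1.22). It was the lowest of them in T and NK cell markers (-0.12, the others 0.21 to 0.84), and the mean of the glioma markers was highest on replicate 4 (1.18). The part of these cells in the cell cycle differences was not tested.

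**Figure D3:**
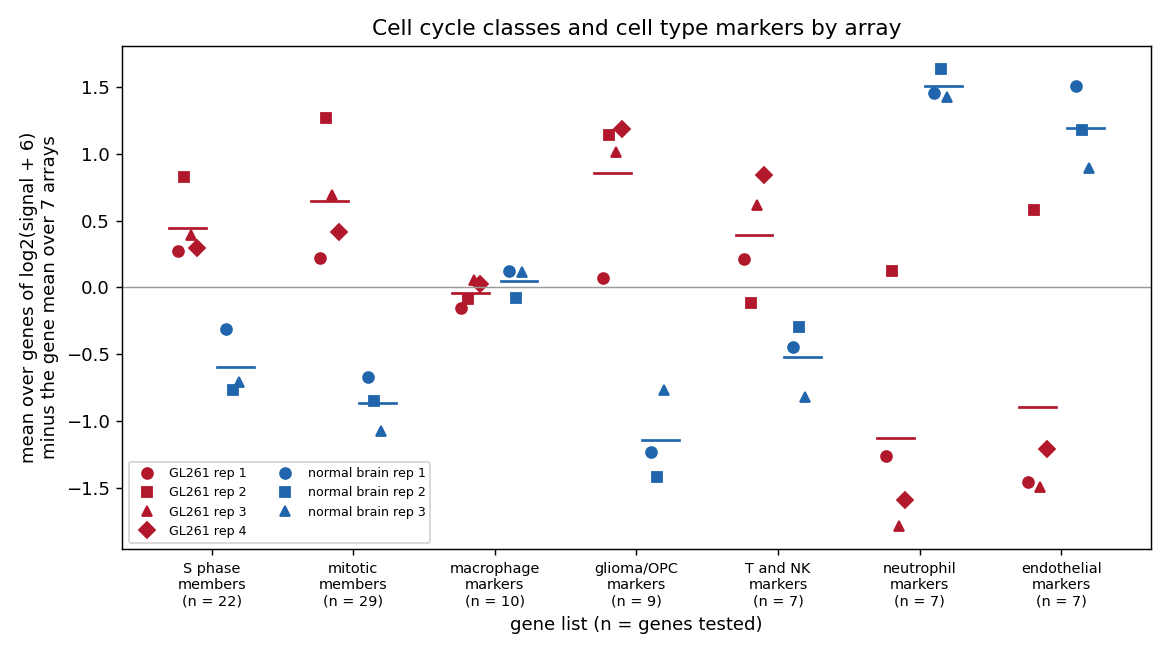
Mean over the genes of each list of log2(signal + 6) minus the gene mean over 7 arrays (y axis), for each array (points, red GL261, blue normal brain) with group means as short lines. Both cell cycle classes and the glioma markers are higher on the GL261 arrays, and GL261 replicate 2 lies at 1.27 for mitotic, 0.13 for neutrophil and 0.58 for endothelial genes.

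The rest of the cell cycle machinery was read from lists chosen by function, with earlier results of these data known. Their shares describe the lists and are no independent evidence. Of 20 other S phase genes 3 (15%) were called higher and 0 lower, against 5.92% and 4.2% of all genes, with a median log2 fold change of 0.88. They were Clspn, a replication checkpoint adaptor (2.66, limma adjusted p = 0.0170), Chaf1b, a histone chaperone subunit (2.26, 0.0230), and Gmnn, the inhibitor of Cdt1 (1.45, 0.00146). Of 30 other mitotic genes 7 (23.3%) were called higher and 0 lower, with a median of 1.28. Those named by the size of the fitted change were the phosphatase Cdc25c (2.79, 0.0262), the condensin subunit Ncaph (2.02, 0.0120), the spindle gene Aspm (1.90, 0.0455) and the cytokinesis gene Cep55 (1.86, 0.00787). Cdc25c was at background on 2 of 3 normal brain arrays, and with background as the floor its log2 fold change was 2.10 (limma adjusted p = 0.0293). The calls of Gmnn and Cep55 held in all 7 fits that left out 1 array. Those of Clspn, Chaf1b, Cdc25c, Ncaph and Aspm were lost in 2, 4, 4, 1 and 6 of them, with adjusted p-values of at most 0.111 by limma. With the mean of probe sets Clspn lost its call at 1.42 (limma adjusted p = 0.0626) and Chaf1b at 1.19 (limma adjusted p = 0.106). Aspm also lost its call by that mean, at 0.82 (limma adjusted p = 0.303). Gmnn, Cdc25c, Ncaph and Cep55 were still called. Gmnn has 1 probe set, so its fold change could not change there.

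Of 10 genes of entry into the cycle 2 (20%) were called higher and 0 lower, against 5.92% and 4.2% of all genes. Cdk6, a cyclin D partner kinase, measured 11.15, 10.57, 10.52 and 11.12 on the GL261 arrays, against 9.80, 8.88 and 10.05 on the normal brain arrays, a log2 fold change of 1.26 ± 0.28 (SE; limma adjusted p = 0.0176). Ccnd2, cyclin D2, measured 11.55, 11.41, 11.82 and 11.82 on the GL261 arrays, against 10.87, 10.76 and 10.75 on the normal brain arrays, a log2 fold change of 0.86 ± 0.16 (SE; limma adjusted p = 0.00681). In both genes the groups did not overlap. The Cdk6 call was lost in 2 of the 7 fits that left out 1 array (adjusted p = 0.0567 at most, without GL261 replicate 4). With the mean of probe sets the Cdk6 call was also lost, at 0.40 (limma adjusted p = 0.601). By that mean Ccnd2 was still called, at 0.75 (limma adjusted p = 0.0419). Ccnd1, cyclin D1, measured 11.20, 11.95, 12.09 and 12.03 on the GL261 arrays, against 12.34, 12.44 and 12.77 on the normal brain arrays. Every GL261 array lay below every normal brain array, but its log2 fold change of -0.70 ± 0.21 (SE; limma adjusted p = 0.0582) was not called. This gene was singled out after its values were seen.

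Of 18 inhibitors and brakes of the cycle 1 (5.56%) was called higher and 0 lower, near the 5.92% and 4.2% of all genes, with a median log2 fold change of 0.19. Cdkn2a, whose locus encodes the inhibitor p16 and the p53 activator ARF, measured 6.46, 6.31, 6.99 and 5.17 on the GL261 arrays, against 2.80, 4.25 and 3.67 on the normal brain arrays. All 3 normal brain arrays were at or under background, so its level was at least 3.16-fold higher in GL261, as the GL261 mean against the background of the normal brain arrays (limma adjusted p = 0.0168). That call was lost in 2 of the 7 fits that left out 1 array (adjusted p = 0.0562 at most, without GL261 replicate 3). Cdkn1a, which encodes p21, did not pass the test at 0.21 ± 0.15 (SE; limma adjusted p = 0.388).

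The promoters were searched for the motifs printed above, in the 44 of 53 genes with an entry in the RefSeq promoter set used here. They were those of 25 mitotic genes, 18 S phase genes and Mybl2, which held none of the words. Of 25 mitotic promoters 19 (76%) held a CHR word, against 2 of 18 S phase promoters (11.1%) and 12% of those of 9831 tested genes. NF-Y boxes were in 21 of 25 mitotic (84%) and 11 of 18 S phase promoters (61.1%), against 38.6% of the tested genes. E2F words were in 2 of 25 mitotic (8%) and 10 of 18 S phase promoters (55.6%), against 12.3% of the tested genes. CHR and NF-Y words occurred together in 18 mitotic and 2 S phase promoters, against 4.91% of the tested genes. Among all 27025 RefSeq promoters the shares were 18.1% for CHR, 37.9% for NF-Y and 6.93% for E2F words. CHR matches of mitotic genes lay at a median position of 3, and 21 of 24 lay from -100 on. An NF-Y box overlapped an E2F word in Mcm7 and a CHR word in Cdca8.

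Fold changes were also read by promoter word. Mitotic genes with a CHR word had a median log2 fold change of 1.43 (7 of 19 called), and those without had 1.59 (2 of 6 called). S phase genes with an E2F word had a median of 1.24 (5 of 10 called), and those without had 0.75 (1 of 8 called). These are descriptions of few genes with no test. A word is a match of letters and not a bound site.

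**Figure D4:**
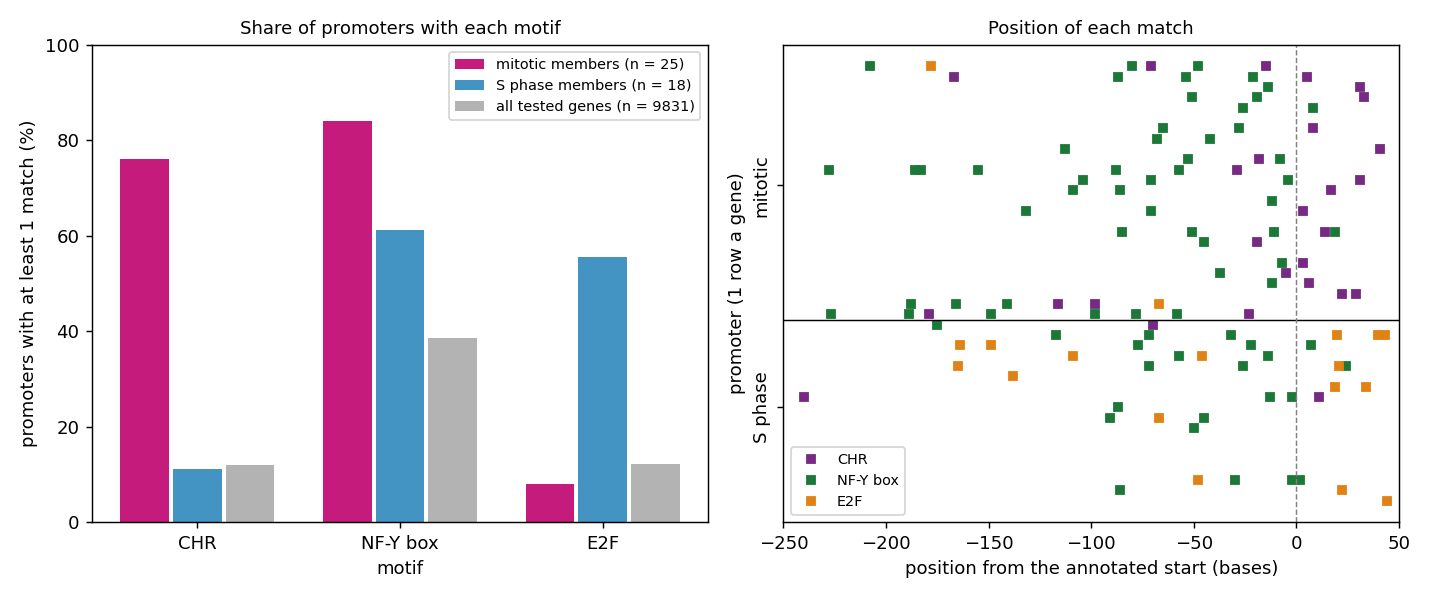
Left, the share of promoters (%) with at least 1 match to each motif in mitotic genes (n = 25), S phase genes (n = 18) and all tested genes (n = 9831); right, the position of every match from the annotated start (x axis, bases), 1 row for each gene. CHR words are in 76% of mitotic promoters and lie near the start, and E2F words are in 55.6% of S phase promoters.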

How the data were processed

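The authors deposited linear MAS5 signal intensities for 45101 probe sets on each array (MAS5 per the submitters' processing notes, version not given in the sources used here). The values were used without further scaling. Of the probe sets 34945 had 1 symbol, and each gene was represented by the one with the highest mean log2 value; symbols and promoters came from RefSeq, GRCm38.p6. Log2(signal + 6), a scale that shrinks fold changes of dim genes, was fitted in R 4.3.3 with limma 3.58.1 with a variance prior that follows the signal. Genes with a mean above 4.93, the 40th percentile, were tested (12125), two-sided, with Benjamini-Hochberg adjustment over all, called under 0.05. A probe set can cross-react: 16 of the 53 used carry the suffix s or x. The background level was chosen after values were seen. No columns were without a sample (0). Values by array were given for up to 8 called genes a class with the largest change, all called genes and fixed markers. Up to 4 called genes of each other cell cycle list were named, with values by array only in the entry and inhibitor lists. Members and lists were chosen with earlier results of these data known. Alternatives changed the pseudocount (1, 58), filter (none, 60th percentile), quantile normalization, median centring, variance prior, array weights, probe set rule, replicate block, and left out each array; testing every probe set and setting values under background to background were added after values were seen. The fit was tested on simulated data in which 200 of 12125 genes changed. It called 32.8% of genes shifted by 1 log2 unit and 71.5% of those shifted by 2, and 4.22% of its calls were false. A gene not called may therefore still differ. The number of arrays limits the precision. Python 3.11.15 with matplotlib 3.10.9 drew the figures.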

Additional observations from a re-analysis of the deposited data

Results flagged for a closer look

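In 2 of the 53 genes 1 GL261 array lay far from the others, relative to the range of the group. Cdc45, a helicase subunit, was 7.01 on GL261 replicate 1 and 7.73 to 7.86 on the other GL261 arrays. Plk1, the polo kinase, was 6.70 on GL261 replicate 1 and 7.98 to 8.10 on the other GL261 arrays. Chance flags about 1 in 20 groups.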

How the results depend on the processing

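Of the 53 fold changes 51 were positive, against 40 of 41 with the filter at the 60th percentile, 49 of 50 with the mean of probe sets, and 51 or 52 of 53 under each other alternative. Called genes were 12 with a variance prior that did not follow the signal and 11 with the mean of probe sets, 6 of them among the 19 (10 to 21 without 1 array). S phase calls were 5 and 5 under those settings (4 to 9 without 1 array). Mitotic calls were 6 with each of no filter, that prior and the mean of probe sets, 5 without normal brain replicate 1 and GL261 replicate 2 together, and 5 to 11 without 1 array. Over all genes 282 were called higher with that prior (305 to 761 without 1 array), and 305 were called lower with median centring, 173 with that prior, 317 with the mean of probe sets and 325 without those 2 arrays (237 to 445 without 1 array). The cause was not tested. Directions turned for Cenpa (-0.015, mean of probe sets), Tyms (0.18 without normal brain replicate 2, range -0.73 to 0.18 without 1 array), Ccne2 (-0.0084 without normal brain replicate 2, range -0.0084 to 0.67) and Cdca8 (0.085 with array weights, 0.51 with the mean of probe sets, 0.13 without GL261 replicate 1, 0.25 without normal brain replicate 3, range -0.22 to 0.25). Same-numbered arrays did not pair (correlation of deviations 0.08, -0.01 and 0.03); with the replicate number as a block 15 members were called, 14 of them among the 19, and the share of higher among calls was 49.9%, against 58.5% without it. Birc5, Cdk1 and Ube2c were called in all 12 other settings. Each has 1 probe set, so the mean of probe sets could not change its fold change. The median S phase and mitotic fold changes were 1.04 and 1.47 with background as a floor. Dim genes near background limit the precision.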
